A study of Homo sapiens with 6 samples.

Results

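The spliced transcripts of 1768 human genes ended in either of 2 well-read last exons in HBEC3kt, an immortalised human bronchial epithelial line. Multi-exon isoforms of each Ensembl gene were grouped by the 3′ splice site that opens their last exon. The 2 groups with most long reads were taken, and the distal share is the percentage of their reads that belongs to the downstream group. A gene was kept when both groups together had at least 10 reads in each of 6 libraries. These 1768 genes were found among 11034 Ensembl genes with reads, of which 10377 had multi-exon isoforms and 3785 had at least 2 read last-exon groups, while 6592 had 1. Of the 1768 genes, 1714 are protein coding, and 1017 had exactly 2 groups while 751 had more.

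Wild-type (WT) cells and cells with the S34F substitution in the splicing factor U2AF1 were compared, with 3 libraries each of poly(A) RNA read as full-length cDNA on a MinION nanopore sequencer. Each genotype is represented by 2 cell isolates. Isolate 1 gave replicate 1 and isolate 2 gave replicate 2, both marked B1 in the titles, and isolate 2 also gave replicate 3, marked B2. The sources used here do not say how the isolates were made or what B1 and B2 mean. P-values therefore rest on the spread between these libraries, which may be technical. In edgeR's test of the distal share that spread was taken almost entirely from all genes together. A gene's own spread between its libraries hardly entered its p-value, so the value of each library is given beside it for many genes.

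The last exon of a transcript holds its polyadenylation site, so a choice between last exons sets the end of the coding sequence, the 3′ untranslated region or both. A downstream last exon can be reached by skipping an upstream terminal exon. An internal exon can also become terminal, usually by reading through its 5′ splice site into the intron behind it (a composite exon), and splicing can use another AG in a shared terminal exon. U2AF1 is the small subunit of the U2 auxiliary factor and contacts the AG at the end of the intron. The S34F substitution, recurrent in lung adenocarcinoma and myeloid neoplasms, is known for altering preference for the base just before that AG, with thymine there disfavoured.

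The genes with the clearest changes are shown first by the sequences at which the last exons begin. Intron ends are given as 20 intron bases and 10 exon bases with the last 3 intron bases in capitals, and junctions as 15 bases of the exon before and 15 bases of the last exon in capitals. Sequences were read 5′ to 3′ from GENCODE release 29 transcripts (GRCh38) matched by transcript ID and exon lengths, while positions are those of the authors' hg19 models. The first 2 genes are those with the smallest p-values, a rise and a fall, and both of their last exons are joined to the same upstream exon.
BUB3 proximal junction: agaaacaaaacccaaGTCACCATGTACTTG
BUB3 distal junction: agaaacaaaacccaaGTCCACCTAATCATC
BUB3 distal intron end: atgtattttcttcattgCAGgtccacctaa
SRP19 proximal junction: tacagttcccatcacATTATACACTAAGCC
SRP19 distal junction: tacagttcccatcacGTAAGTCAGTAATGT
SRP19 distal intron end: gcctaacttctggttccTAGgtaagtcagt
The distal last exon of BUB3 starts at position 124924563 on the plus strand of chromosome 10 and the proximal one at 124923336. In SRP19, on the plus strand of chromosome 5, they start at 112203101 and 112203069. The BUB3 distal intron ends in CAG, and that of SRP19 in TAG.

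The 1768 pairs fell into 4 structures, and 1065 of them were separate last exons while 703 were forms of 1 overlapping terminal exon, for which "alternative last exons" is a loose name. In 341 pairs the exons overlapped and differed by the splice site, with a median distance of 19 bases between sites and a median distal share of 11.8% over genes in WT cells. In 362 overlapping pairs the proximal form kept the last intron of the distal form. Their median distance was 402.5 bases and their median distal share 96.9%, so the spliced form predominated. In 699 pairs the proximal last exon was composite, sharing its splice site with an internal exon of the distal form, at a median distance of 4869 bases and a median distal share of 95.6%. In the other 366 separate pairs the proximal site opened no internal exon of the distal form, a structure called skipped below. Their median distance was 12162 bases and their median distal share 59.2%. In 56 of the 366 the regions spanned by the 2 groups did not overlap, so in these the models show no skipping.

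**Figure D1:**
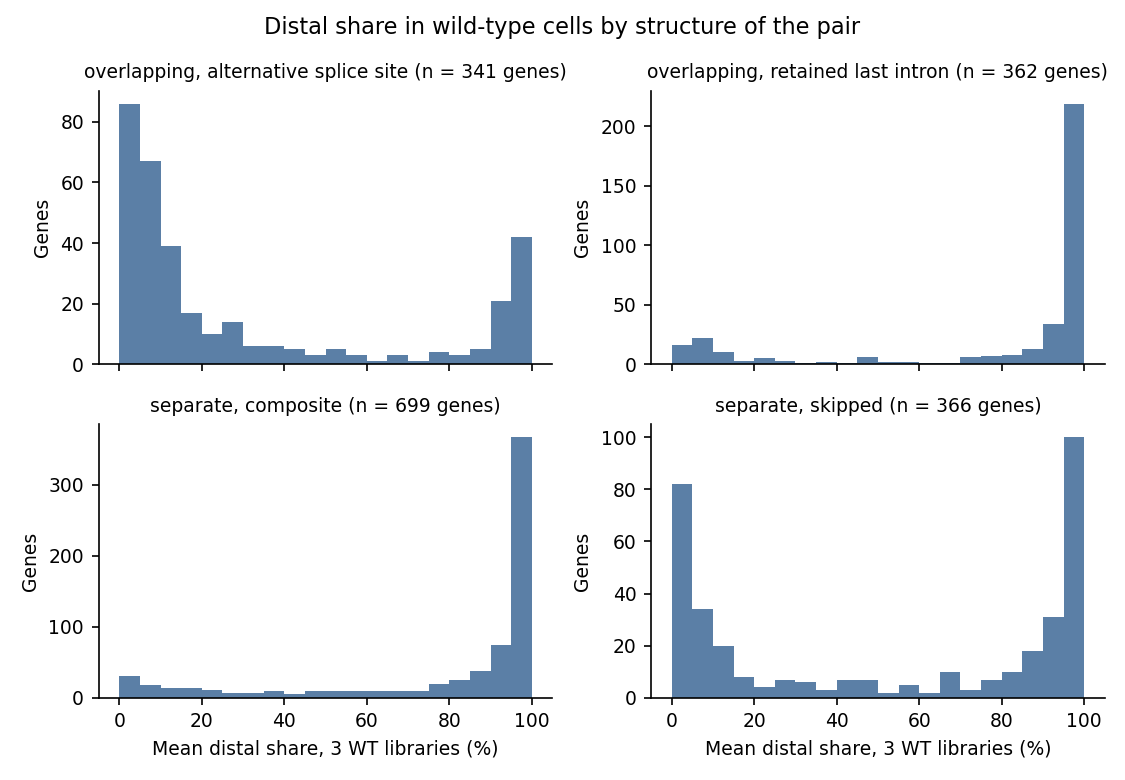
Histograms of the mean distal share in the 3 WT libraries (x axis, percent, bins of equal width) against the number of genes (y axis, scales differ), 1 panel per structure. Alternative splice sites gather at low shares (median 11.8%), retained last introns and composite exons at high shares (medians 96.9% and 95.6%), and skipped exons lie at both ends (median 59.2%).

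In most genes 1 form dominated: the minor form made up at least 10% of reads in WT cells in 523 genes and less in 1245. Among alternative splice sites, 117 pairs differed by 6 bases or fewer. The best-read proximal isoform was an annotated transcript in 98 of these and the best-read distal isoform in 17. How exactly a nanopore read can be placed between sites that close was not tested. In 65 genes the isoforms of the 2 groups shared no splice site, and 64 of these genes are in the skipped class. In 56 of the 65 the regions they span did not overlap, so the deposited models do not join their 2 ends in 1 transcript.

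Both best-read isoforms matched annotated protein-coding transcripts in 287 genes. The coding sequence had the same number of codons in 33 of these, was longer in the distal form in 167 and shorter in 87, with a median absolute difference of 38 codons. For composite pairs the median absolute difference was 79.5 codons, and the distal form was longer in 62 of 78. In overlapping pairs with an alternative splice site it was 19 codons, and the distal form was shorter in 33 of 62.

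At gene level U2AF1 itself was measured at 499.9, 569 and 303 CPM (counts scaled to a common library size) in WT replicates 1, 2 and 3 and at 535, 418 and 242 CPM in S34F. The groups overlapped, the log2 fold change was -0.22 ± 0.28 (SE) and edgeR's adjusted p was 0.764. A count of reads does not show the substitution, so this does not check the labels.

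The distal share differed between genotypes in 21 of 1768 genes (1.19%) at an adjusted p under 0.05 by edgeR's quasi-likelihood test on the proximal and distal counts of each library, with a B1/B2 term. It was higher in S34F in 10 genes (0.566%) and lower in 11 (0.622%). The absolute difference between genotype means in these genes ranged from 2.31 to 42.1 percentage points with a median of 20.7. Over all 1768 genes the median difference was 0.013 points with quartiles of -1.46 and 1.27, and the median SD within a genotype was 1.75 points in WT and 2.32 points in S34F. The median distal share over genes was 89.9%, 89.9% and 91.0% in WT replicates 1, 2 and 3 and 89.5%, 89.8% and 90.4% in S34F. The share of distal reads pooled over all genes was 57.9%, 58.3% and 61.0% in WT and 57.0%, 56.2% and 59.2% in S34F. Both were lower in S34F than in WT among B1 libraries and among B2 libraries, while the ranges of the genotypes over all libraries overlapped. No test was made of these summaries.

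**Figure D2:**
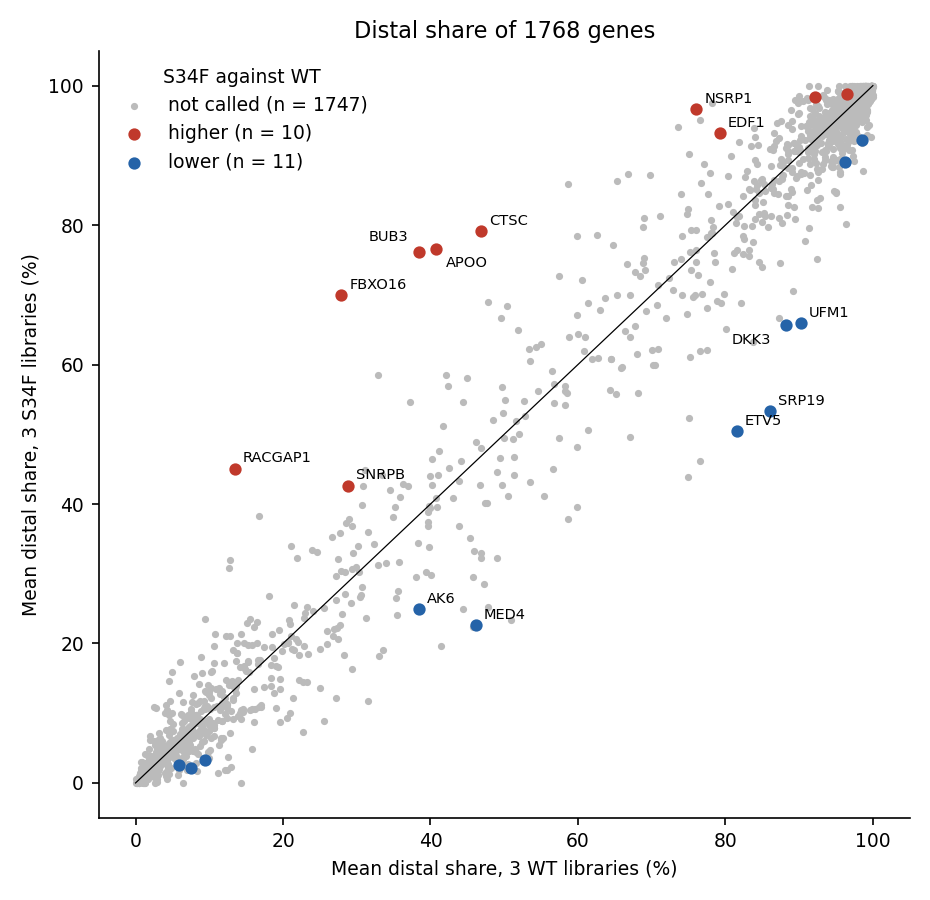
Mean distal share of each gene in the 3 WT libraries (x axis, percent) against the 3 S34F libraries (y axis, percent), with the line of equal shares. Grey points are the genes without a call, and red and blue points are the 10 genes called higher and the 11 called lower in S34F.

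The call count depends on the model. The same comparison called 3 genes, BUB3, SRP19 and TGFBI, without the B1/B2 term, by DESeq2, or with the libraries of isolate 2 summed. It called 0 with unweighted limma on log odds, which called 172 genes at an unadjusted p under 0.05 against 185 by edgeR. BUB3, SRP19, TGFBI, EDF1 and RPS21 were called by edgeR whichever single library was left out. When either replicate 3 is left out, the B1/B2 term takes up the only B2 library left. These 2 fits thus compare the genotypes in B1 libraries only, here and in the losses of calls named below. All 21 had the same direction in B1 and in B2 libraries taken alone, as had 967 of all 1768 genes (54.7%), but the calls were made on these same libraries, so this is no independent support. In 18 of the 21 the WT and S34F library ranges did not overlap, 9 in each direction. The same held for 251 of all 1768 genes (14.2%), 125 higher (7.07%) and 126 lower (7.13%).

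BUB3, a component of the mitotic spindle checkpoint, switched its main last exon. Its distal share was 41.8%, 39.7% and 33.8% in WT replicates 1, 2 and 3 and 76.0%, 78.9% and 73.6% in S34F, on 233 to 564 reads per library. Every S34F library lay above every WT library, and the mean rose from 38.4% ± 4.15 to 76.2% ± 2.68 (SD, n = 3 each). The log2 odds ratio was 2.37 ± 0.25 (SE) and edgeR's adjusted p was 8.16e-18. The sites lie 1227 bases apart, and in the best-read isoforms the 2 forms are separate terminal exons behind the same exon, the distal form skipping the proximal exon. The proximal group also holds a model that runs on to the end of the distal exon, so its last exons are not all separate. The annotated proteins have 328 codons with the proximal and 326 with the distal last exon. BUB3's difference was 36.7 points in B1 and 39.8 points in B2.

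SRP19, which encodes a protein of the signal recognition particle that brings nascent secretory proteins to the endoplasmic reticulum, moved the other way. Its distal share was 87.3%, 86.7% and 84.1% in WT and 48.5%, 61.4% and 50% in S34F, on 57 to 354 reads. The groups were well apart, with means of 86.1% ± 1.69 and 53.3% ± 7.05 (SD, n = 3 each). The log2 odds ratio was -2.45 ± 0.34 (SE) and edgeR's adjusted p was 1.08e-09. The sites lie 32 bases apart in the same terminal exon, and the annotated coding sequences hold 110 codons (proximal) and 144 codons (distal). The junction with the proximal site, 32 bases upstream, thus became nearly as frequent as the distal one.

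Pairs that differ by the splice site of a shared terminal exon gave 4 calls among 341 genes (1.17%). Besides SRP19 these were EDF1, SNRPB and APOO, and in these 3 the distal form rose and its intron ends in CAG, as shown for comparison with SRP19.
EDF1 distal intron end: gtggctgtggctcatttCAGgcctcaagct
SNRPB distal intron end: ttgtctggtttcccttaCAGggccccctcc
APOO distal intron end: aaattggctttcttcttCAGgaaaaactag
EDF1, a translation-associated cofactor, had distal shares of 79.5%, 80.3% and 78.0% in WT and 94.3%, 96.5% and 89.0% in S34F, and all S34F libraries lay above all WT libraries (edgeR adjusted p = 9.58e-05). Its sites lie 151 bases apart, the proximal intron ends in TAG, and the annotated proteins have 141 and 148 codons. SNRPB, a core Sm protein of the spliceosomal small ribonucleoproteins, rose from 27.9%, 32.1% and 26.5% to 42.2%, 48.0% and 37.6% (edgeR adjusted p = 0.0121). Its proximal and distal forms encode 231 and 240 codons. APOO, a subunit of the mitochondrial cristae-organising MICOS complex, rose from 37.7%, 53.6% and 30.8% to 78.3%, 88.2% and 63.4% on only 17 to 53 reads per library (edgeR adjusted p = 0.0121). For SNRPB and APOO the groups did not overlap. The call for SNRPB was lost when any WT library or S34F replicate 3 was left out, and that for APOO when any library other than WT replicate 2 was.

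Retained last introns changed in 2 of 362 genes (0.552%), both for ribosomal proteins and in opposite directions. The spliced distal form of RPS21, of the small subunit, fell from 96.4%, 95.9% and 96.6% in WT to 90.6%, 85.6% and 90.9% in S34F, with no overlap (edgeR adjusted p = 3.43e-04, 104 to 1052 reads). Its distal last exon starts at 60963513 on the plus strand of chromosome 20, and the proximal form ends 155 bases past the 5′ splice site. The RPS21 intron end is printed because it and that of SRP19 are the 2 called distal sites with TAG.
RPS21 distal intron end: tccttttcccctggttcTAGgaacttttga
RPL29, of the large subunit, rose from 96.5%, 96.9% and 96.2% to 98.3%, 99.1% and 99.1%. The groups did not overlap, at a difference of 2.31 points (edgeR adjusted p = 0.0101). The call was lost when WT replicate 1 or 3 or S34F replicate 2 or 3 was left out.

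Composite last exons, in which an exon that is internal in the distal form ends the proximal form, changed in 5 of 699 genes (0.715%, against 1.19% of all genes). In 4 of the 5 the proximal form runs past the 5′ splice site of that exon, and in NSRP1 it ends inside the exon. TGFBI, a secreted extracellular matrix protein, had distal shares of 98.4%, 98.3% and 98.7% in WT and 94.3%, 88.9% and 93.6% in S34F (edgeR adjusted p = 1.41e-09). Only 50.7% of TGFBI's distal reads were in isoforms that share a splice site with the proximal group, so the other distal isoforms do not hold the splice site of the proximal last exon. The S34F libraries were all lower, and S34F replicate 2 was the lowest. The proximal form stayed the minor one in every library. Its best-read isoform is no annotated transcript and ends 1874 bases past the internal exon's 5′ splice site. DKK3, a secreted Dickkopf-family protein, had 87.6%, 85% and 92.1% in WT and 84.6%, 35.1% and 77.1% in S34F (edgeR adjusted p = 0.00479). S34F replicate 2 stood far below the others, and DKK3 was not called without it, nor without S34F replicate 3 or WT replicate 1 or 3. The distal share of NSRP1, a nuclear speckle splicing regulator, rose from 66.7%, 74.8% and 86.5% to 95.8%, 97.3% and 96.9% (edgeR adjusted p = 0.00855), a difference of 25.8 points in B1 and 10.3 in B2. It was not called without WT replicate 1 or 3 or S34F replicate 2. MED4, a Mediator subunit, fell by 23.5 points with overlapping ranges, and its call rested on the same 4 libraries as that of DKK3. MIR205HG, the host transcript of the microRNA miR-205, fell by 3.27 points from a share of 5.84%, a call lost without any library other than S34F replicate 1.

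Skipped last exons gave 10 of the 21 calls among 366 genes (2.73%), 5 in each direction, and 3 of the 10 are pairs without a shared splice site. Besides BUB3, UFM1, a ubiquitin-like protein modifier, fell from 91.5%, 91.2% and 88.0% to 68.6%, 63.0% and 66.3% (edgeR adjusted p = 0.0011), with no overlap and on 27 to 113 reads. Both UFM1 last exons follow the same exon, 670 bases apart, and the proximal one is unannotated. UFM1 was not called without WT replicate 1. The distal share of CTSC, the lysosomal protease cathepsin C, was 49.5%, 28.1% and 63.1% in WT and 64.3%, 85.7% and 87.5% in S34F. Its proximal form encodes 137 codons against 463 for the distal one, and its groups lay just apart (edgeR adjusted p = 0.0443), a call lost without any single library. AK6 fell from 36.0%, 41.7% and 37.5% to 22.6%, 20.3% and 31.8% (edgeR adjusted p = 0.0443), also lost without any single library. AK6 shares its locus with TAF9, and the annotated coding sequences hold 264 codons (proximal) and 172 codons (distal). Whether both belong to AK6 was not tested, so the share need not be a choice between 2 forms of AK6. RACGAP1, a component of the centralspindlin complex of cytokinesis, rose by 31.6 points on 10 to 46 reads with overlapping ranges, and its call was lost without any library other than S34F replicate 1.

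For 5 called genes with skipped exons the pair itself needs care. KRT5, the basal-cell keratin, fell from 9.48% to 3.25%, but its distal last exon lies over an exon of the paralogue KRT6A, and how reads were divided between them was not tested. It was not called without WT replicate 2. GATD3A, which has a near-identical copy (GATD3B), rose from 92.2% to 98.4%, and was not called without WT replicate 1 or 2 or S34F replicate 1. The forms of STMN1, FBXO16 and ETV5 shared no splice site and did not overlap in the deposited models, which thus do not show them as alternative ends of 1 transcript. Whether they are separate transcripts or 5′-shortened reads of a longer one was not tested. Their changes were -5.48, 42.1 and -31.0 points. FBXO16 had 28.0%, 30.8% and 25% in WT and 72.2%, 60.0% and 77.8% in S34F on 15 to 28 reads. ETV5, an ETS-family transcription factor, had 80.0%, 71.8% and 92.8% in WT and 47.8%, 17.6% and 86.0% in S34F, with overlapping ranges. STMN1 was not called without replicate 3 of either genotype, FBXO16 without replicate 1 or 3 of either, and ETV5 without WT replicate 1 or 3 or S34F replicate 2. Of the 1703 genes whose groups share a splice site, 18 were called (1.06%).

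**Figure D3:**
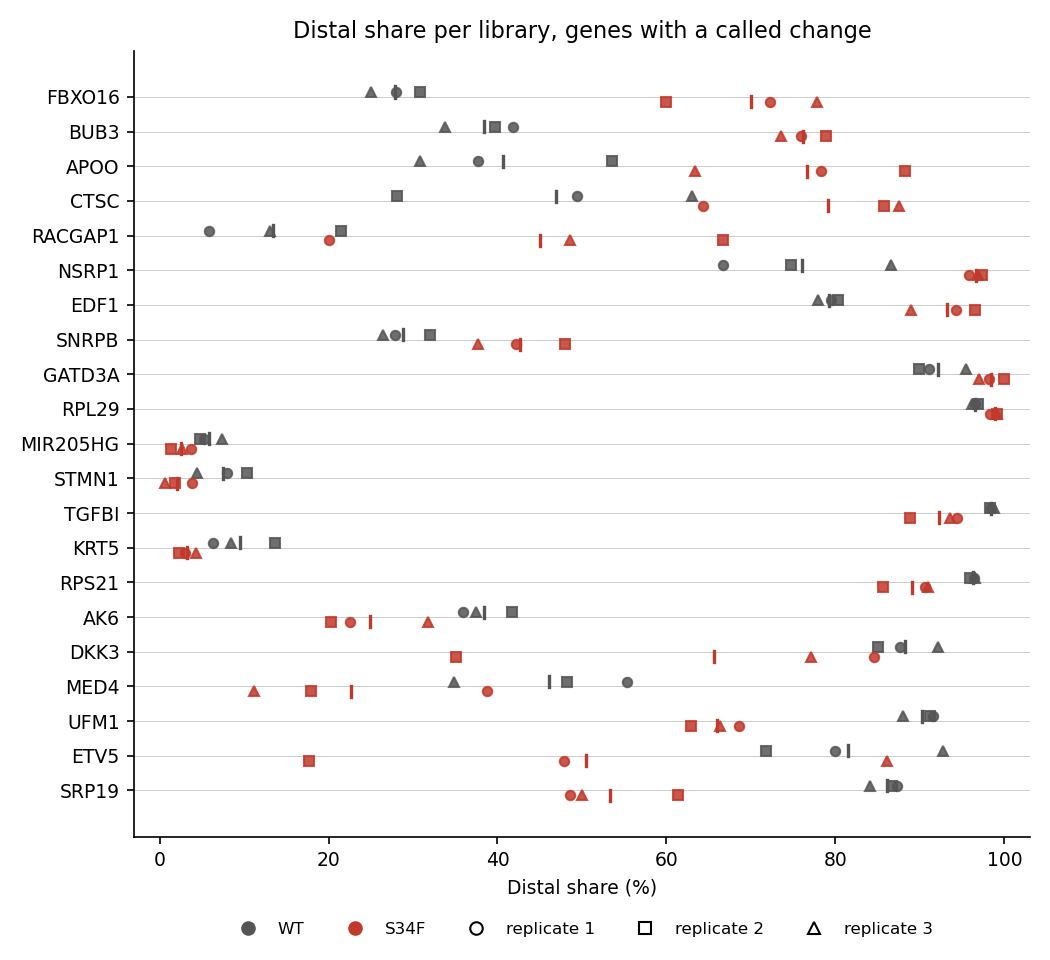
Distal share (x axis, percent) in each library for the 21 genes with a call, ordered by the difference between genotypes. Grey marks are WT and red marks S34F, the marker shape gives the replicate, and short vertical lines are means of 3 libraries. BUB3, SRP19, EDF1 and UFM1 show groups set well apart, while S34F replicate 2 stands alone in DKK3.

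The base before the AG of the distal last exon was read for 389 of 703 overlapping pairs (55.3%), and 384 of these introns ended in AG. Only intron ends covered by an exon of some annotated transcript could be read, which selects the pairs. This grouping was chosen after the data were seen. With T before the AG, 49 pairs had a median difference of -1.51 points, and 2 were called, both lower. At an unadjusted p under 0.05, 15 of the 49 were lower in S34F and 1 was higher, against 93 lower (5.26%) and 92 higher (5.2%) of all 1768 genes. With C, 259 pairs had a median difference of 0.11 points, and 3 were called, all higher. In this group 19 were higher and 11 lower at an unadjusted p under 0.05. With A, 48 pairs had a median of 0.72 points and 2 higher against 0 lower, and with G, 28 pairs had 0 higher and 1 lower.

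Among the T pairs, the 25 retained last introns had a median difference of -4.14 points, with 10 lower and 0 higher at an unadjusted p under 0.05. Their median distal share, the spliced form, was 31.8%, 38.1% and 30.6% in WT and 26.3%, 13.8% and 17.4% in S34F. For 83 retained last introns with C the median difference was -0.21 points, with 5 higher and 5 lower. With separate last exons added, 60 distal sites had T, of which 46 had a lower mean in S34F. Of 289 sites with C, 137 were lower, and of all 1768 genes, 872. In 35 of the 60 the share was lower in both B1 and B2. That count was not made for sites with C or for all genes, so it has no matched background. For all 1768 genes only agreement in direction, whether higher or lower, was counted, at 967 (54.7%). The count of 16 lower T sites ranged from 8 to 16 over the settings listed at the end, and from 9 to 14 with single libraries left out, while the count of higher ones stayed at 0 to 3.

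**Figure D4:**
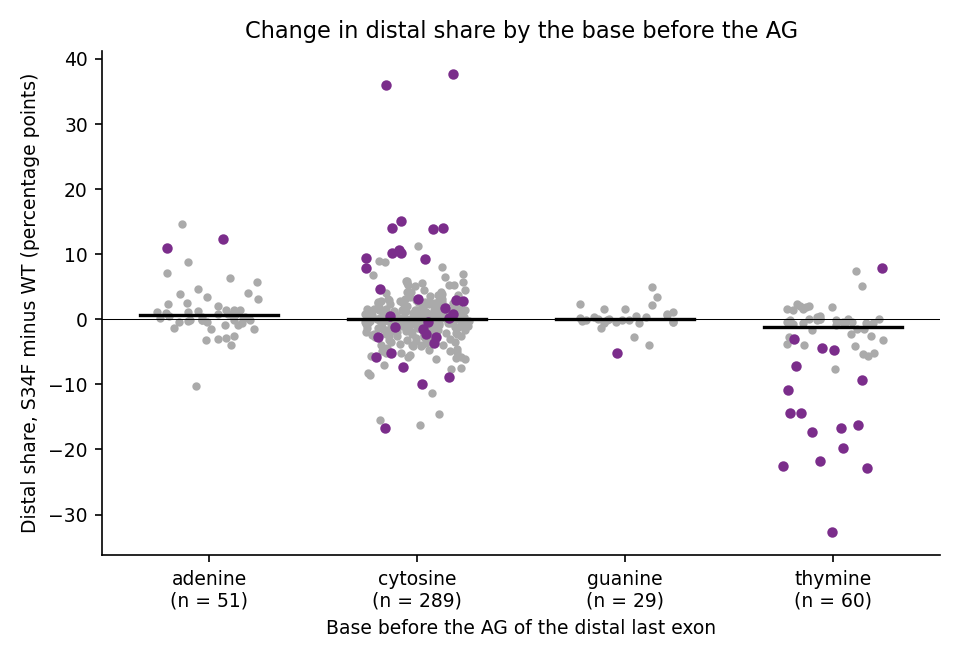
Difference in mean distal share, S34F minus WT (y axis, percentage points), of each gene whose distal site was read and ends in AG, by the base before the AG (x axis, 51, 289, 29 and 60 genes). Purple points have an unadjusted edgeR p under 0.05 and black bars are medians. With thymine 16 purple points lie below 0 and 1 above, and with cytosine they lie on both sides.

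The remaining sites with T at an unadjusted p under 0.05 missed the adjusted threshold, and they were named after their values were seen. PFDN6, a subunit of the prefoldin chaperone, had its spliced last exon in 97.6%, 95.6% and 95.8% of reads in WT and 77.8%, 87.5% and 75% in S34F (edgeR adjusted p = 0.0921). ZFP36L1, an RNA-binding protein that promotes decay of AU-rich messages, had 31.9%, 46.0% and 46.3% in WT and 21.1%, 2.63% and 35.4% in S34F, with overlapping ranges (edgeR adjusted p = 0.079). The intron ends of both show the same TAG in front of different exons.
PFDN6 distal intron end: tctcccttgtctctcctTAGtaagcgatac
ZFP36L1 distal intron end: tcttgcctgggtttgtgTAGgtctgcagga

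SRSF2, an SR protein of pre-mRNA splicing, had a distal share of 17.4%, 31.4% and 27.8% in WT and 8%, 13.0% and 5.63% in S34F, without overlap (edgeR adjusted p = 0.109). SRSF5, another SR protein whose sites are 3 bases apart, had 38.3%, 35.6% and 20.9% in WT and 5%, 9.68% and 20.6% in S34F (edgeR adjusted p = 0.318). HNRNPK, a nuclear RNA-binding protein, had 51.1%, 53.3% and 46.9% in WT and 42.1%, 38.3% and 43.0% in S34F (edgeR adjusted p = 0.47). All 3 had lower values in every S34F library, by a narrow margin for SRSF5. SRSF3, a further SR protein with T at its distal site, had a difference of 0.36 points.

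PMPCB, a subunit of the mitochondrial processing peptidase, had a mean of 92.4% in WT and 75.2% in S34F. ABCD4, a lysosomal transporter, had 75.1% and 52.3%, and FKBP1B, an FK506-binding protein, had 47.8% and 25.3%, the last with overlapping ranges. LAMTOR3, of the Ragulator complex, had 21.4%, 12% and 9.62% in WT. In S34F it had 0 distal reads of 13, 19 and 29, which allow a share of up to 23.1%, 15.8% and 10.3%, limits that all lie above the lowest WT value. SMIM26 was the exception among these sites: its distal share was 66.6% in WT and 74.5% in S34F, with overlapping ranges.

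Genes known for alternative last exons were looked at as a list of 24 symbols, in which EPRS and EPRS1 name the same gene, and 14 of them were among the 1768 genes. Of these, 1 was called (BUB3), and the list's median difference was -0.38 points against 0.013 over all genes. The distal share of LMNA, whose proximal composite and distal last exons make lamin C and lamin A, was 26.6%, 30.1% and 34.7% in WT and 26.1%, 27.4% and 26.4% in S34F, with overlapping ranges. CDC42, a small GTPase, had 28.4% and 27.1% on average, but its read pair was a choice between sites 4 bases apart, not its known alternative terminal exons. TPM4, a tropomyosin, had 36.3% ± 3.08 in WT and 42.9% ± 0.23 in S34F (SD, n = 3 each) at sites 2 bases apart, apart in range and not called (edgeR adjusted p = 0.749). MAX, the dimerisation partner of MYC, had 90.5% and 97.8%, and CAST, the calpain inhibitor calpastatin, 88.5% and 82.9%. The other tropomyosins TPM1, TPM2 and TPM3 differed by at most 1.56 points, as did CCND1, CDKN2A, HNRNPDL, MDM2 and PDLIM7.

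None of the 6 genes with most reads was called. PFN1, an actin-binding protein, spliced its last intron in 99.8% of reads in WT and 99.7% in S34F. RPL35 had 99.2% and 99.4%. RPS14, with sites 2 bases apart, had 9.10%, 8.86% and 6.52% in WT and 10.4%, 9.33% and 7.60% in S34F. ACTB, the cytoplasmic beta-actin, had 3.37%, 4.69% and 6.93% in WT and 3.52%, 2.26% and 5.86% in S34F. S100A11, a calcium-binding protein, and ANXA2, an annexin, had differences of 0.67 and 1.46 points. As in RPS14, the sites of these genes lie within 6 bases of each other, where the placement of reads was not tested. In all 6 the genotype ranges overlapped.

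Total reads per gene were tested beside the shares. Of the 1768 genes, 16 were called higher and 26 lower in total reads (2.38%), against 228 of 7033 genes tested (3.24%), 78 higher (1.11%) and 150 lower (2.13%). Of the 21 with a changed share, edgeR called 0 at gene level. Their log2 fold changes ran from -0.95 to 1.34, and the smallest adjusted p was 0.0512, for KRT5. In bulk RNA, fewer cells of a kind and less RNA per cell cannot be told apart. Among 25 genes for cleavage and polyadenylation, which cut the transcript and add its tail, 22 had reads, 13 could be tested and 0 were called by edgeR, with 2 at an unadjusted p under 0.05, and 0 were called by DESeq2. The 3 with the smallest p were SNRNP70, of the U1 particle that also restrains premature polyadenylation, at a log2 fold change of 1.71 (edgeR adjusted p = 0.0582), CPSF6 at 0.85 and CPSF3 at 0.66.

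Library totals ran from 451540 to 1720292 reads, all 3 WT libraries being deeper than any S34F library, and the median gene had 46 to 171 reads of both forms. All 10 listed basal airway markers were read, at summed levels of 6869 to 8658 CPM in WT and 6792 to 9179 CPM in S34F. Of the listed markers of other cells, 0 of 6 fibroblast genes were read. Of blood-cell genes 2 of 5 were read (CD68 and CD14, with PTPRC at 0), summing to 60.2 to 79.2 CPM in WT and 62.3 to 90.3 CPM in S34F. Of secretory and ciliated genes only TUBA1A was read, at 62.8 to 94.1 CPM in WT and 161 to 199 CPM in S34F, while SCGB1A1 and FOXJ1 were at 0.

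The distal share also differed between B1 and B2 libraries, in 116 genes (6.56%), 68 higher (3.85%) and 48 lower (2.71%) in B2. THRAP3, an RNA-processing factor, has a composite proximal form that ends inside the internal exon, and 0% of reads in either group are in annotated isoforms. Its distal share was 33.1%, 40.5%, 52.4% and 30.7% in the 4 B1 libraries and 95.8% and 94.3% in the 2 B2 libraries. Composite exons, 39.5% of all pairs, made up 36 of the 68 genes higher in B2 and 9 of the 48 lower, while overlapping pairs, 39.8% of all, made up 6 and 25. Of the 21 genes called for genotype, STMN1 and ETV5 were also called for B2. B1 and B2 each hold both genotypes.

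**Figure D5:**
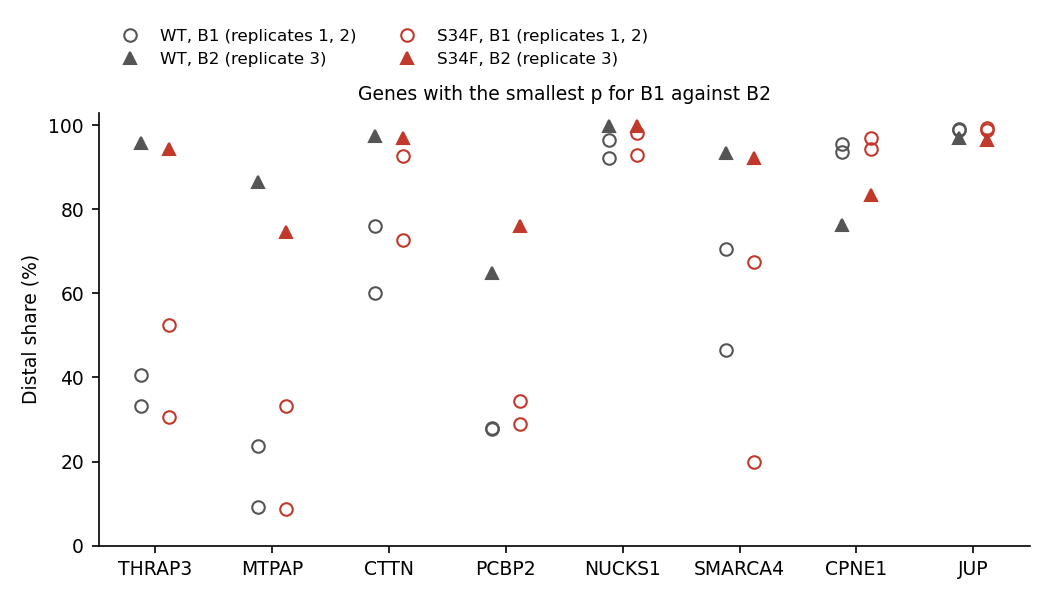
Distal share (y axis, percent) in each library of the 8 genes with the smallest p for B1 against B2. Grey marks are WT, red marks S34F, open circles B1 and filled triangles B2. In THRAP3 both B2 libraries (95.8% and 94.3%) lie above all B1 libraries. The proximal last exon of PCBP2 lies over an exon of PRR13, and the distal one of JUP over an exon of KRT17.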

How the data were processed

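Full-length cDNA of 3 WT and 3 U2AF1 S34F libraries of HBEC3kt cells was poly(A)-primed, made with Smart-Seq2 and read by the 1D nanopore method, per the labels' protocols. The authors deposited raw read counts of each isoform as whole numbers without normalization. Per the submitters' processing notes the genome is hg19. The sources used here do not give the assignment of reads to isoforms or the handling of 5′-shortened reads.

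Isoforms were grouped by last-exon splice site (minimum of 10 reads). Proximal and distal counts of each library entered edgeR 4.0.16 (R 4.3.3, quasi-likelihood, library terms, B1/B2, genotype; Benjamini-Hochberg at 0.05), and gene totals with TMM and filterByExpr. Alternatives used limma 3.58.1 and DESeq2 1.42.0, with settings changed 1 at a time. Symbols matched for 1750 genes. Intron ends were read for 510 sites, of which 505 end in AG. Python 3.11.15, numpy 2.4.6, pandas 2.3.3 and matplotlib 3.10.9 were used for tables and plots. On simulated data of 1768 genes, edgeR recovered 37 of 100 genes changed by a log2 odds of 2 and 2 of 100 at 1, with 2 false calls, and unweighted limma none. The simulation gave every gene the same spread between libraries, no B1/B2 difference and no shared isolate. Its counts are therefore no measure of the error rate in the real libraries.

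Genes were named by rule: the 10 largest rises and falls among called genes with ranges apart, the 6 with most reads, listed genes and the smallest p per structure. Other called genes and sites with T were named after their values were seen. The genes and lists were chosen with earlier results of these data known.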

Additional observations from a re-analysis of the deposited data

How the results depend on the processing

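Of 21 genes with a changed share, 3 were called without the B1/B2 term (with 116 past an unadjusted 0.05), 3 by DESeq2 (64), 3 with the libraries of isolate 2 summed (109), 8 in B1 libraries only (111) and 7 of 1359 genes at equal depth (92). Unweighted limma with an offset of 0.5 or 1 called 0 genes, with 172 and 203 at an unadjusted p under 0.05. Weighted by reads, a setting chosen after seeing the data, limma called 36 (22 higher, 14 lower), 16 of them shared. Leaving out 1 library gave 7 (without WT replicate 1) to 18 calls (without S34F replicate 1), with 8 when WT replicate 3 was left out, 13 for S34F replicate 2 and 10 for S34F replicate 3. A minimum of 20 reads gave 14 calls, no minimum 18, merging sites within 20 bases 21 (19 shared), and leaving out genes with another gene's exon over a last exon, also chosen after seeing the data, 20. The cause of these differences was not tested, but 2 features of the settings are known. Fewer genes or reads entered where the minimum, the thinning or the library set changed. Without either replicate 3, the genotype comparison rests on B1 libraries alone.

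With a replicate block in place of B1/B2, 15 genes were called, all among the 21. The correlations of same-numbered libraries' deviations were 0.066, 0.032 and 0.364 for replicates 1, 2 and 3. Only those of replicate 3, the B2 libraries, correlated best with their own number. Across replicates 1 and 2 the values were 0.155 and 0.19. Values this small cannot decide whether the numbers 1 and 2 pair libraries. Of the cleavage and polyadenylation genes, 1 was called with no filter on low counts, 1 with the replicate block and 0 to 1 with single libraries left out. The median difference over genes stayed between -0.061 and 0.066 points, and U2AF1 was called under no setting. No called gene reversed its direction under any of the 391 combinations of gene and setting, and 191 of them kept the call. The called gene with fewest reads, RACGAP1, had 10 in its shallowest library.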

Other observations

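Composite proximal ends were of 2 kinds. In 534 of 699 genes the proximal form ended past the internal exon's 5′ splice site, and in 165 it ended at or inside that exon, with median proximal last-exon lengths of 483.5 and 102 bases. Of the ends whose following 20 bases could be read, 12 or more were A in 10 of 66 (15.2%) for ends at or inside the exon, in 4 of 93 (4.3%) for ends past it and in 15 of 386 (3.89%) for proximal ends of the other structures. Of the 165 genes with ends at or inside the exon, 15 were called higher and 0 lower in B2, against 68 (3.85%) and 48 (2.71%) of all 1768 genes. In S34F, 1 was higher and 0 lower (0.606%), against 0.566% higher and 0.622% lower of all genes. This split and this count were chosen after the data were seen, and the part of priming at A-rich stretches in the shares was not tested.

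The first principal component of the distal log odds held 30.7% of the variance and set both B2 libraries apart from the 4 B1 libraries. MTPAP, the mitochondrial poly(A) polymerase, had distal shares of 23.6%, 9.09%, 8.70% and 33.3% in B1 and 86.5% and 74.7% in B2. PCBP2, an RNA-binding protein, had 28.0%, 27.7%, 34.4% and 28.9% in B1 and 64.8% and 76.1% in B2. However, its proximal last exon lies over an exon of another gene, PRR13, and how reads were divided between them was not tested. SMARCA4, a chromatin-remodelling ATPase, had 46.6%, 70.6%, 67.6% and 20% in B1 and 93.4% and 92.1% in B2. Its proximal form ends inside the internal exon, as does that of THRAP3, while that of MTPAP runs past it. ACTG1, the cytoplasmic gamma-actin, spliced its last intron in 57.3% to 62.5% of reads in B1 and in 79.0% in both B2 libraries. Its best-read proximal isoform is annotated as protein coding, and the best-read spliced distal one as subject to nonsense-mediated decay. CPNE1 moved the other way, from 93.5% to 97.1% in B1 to 76.4% and 83.3% in B2.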
